A study of Mus musculus with 34 samples.

Results

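Lysosomes are acidic organelles in which hydrolases cut proteins, glycans, sulfated sugars and lipids that arrive from outside the cell or by autophagy. Their membrane holds glycoproteins, channels and transporters, and a pump that moves protons inward. The transcription factors TFEB and TFE3 activate many of the genes for these proteins when they enter the nucleus, and they are held in the cytoplasm by the kinase complex mTORC1, which is itself switched on at the lysosomal surface. In kidney, proximal tubule cells take up filtered protein and digest it in a dense lysosomal system, and macrophages are another cell type with many lysosomes.

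Messenger RNA for 41 lysosome genes was examined in kidney of 34 mice. The genes were a list of names: 11 proteases, 10 glycosidases, 4 sulfatases, 5 enzymes or cofactors of lipid breakdown, 8 membrane or cholesterol-handling proteins, and 3 genes grouped here as regulators. All 41 of them were found among the 23509 genes in the tables and all 41 passed the filter on low counts, which left 15644 tested genes. Their counts per library ran from 129 to 155334.

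All kidneys were harvested on postnatal day 28 (P28) from mice of C57BL6 background. The control group (UNT, n = 12) was wildtype and received no treatment. The other two groups carried the genotype that the labels spell Pdk2KO and the study calls *Pkd2*-KO, in which a Cre transgene driven by the *Pkhd1* promoter removes floxed *Pkd2* from collecting duct cells, so the deletion is not present in every kidney cell. Of these, 1 group received PBS (n = 11) and 1 received RGLS4326 at 20 mg per kg (n = 11), both under the skin on P10, P11, P12 and P19. RGLS4326 is a short, chemically modified oligonucleotide that pairs with the seed of the microRNA miR-17. All 11 libraries labelled PBS were used, which is more PBS mice than the study's description of its RNA sequencing gives, and which of them it used is not given in the sources used here. PBS mice entered both main comparisons below, so the comparisons are not independent of each other. The 34 libraries include no *Pkd2*-KO mice without an injection, no wildtype mice given the oligonucleotide, and a control oligonucleotide was not analysed here.

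Library sizes lay between 17603122 and 54981992 reads in genes. The share of reads that fell in no gene was 9.84 to 11.3% in UNT, 5.18 to 9.0% in PBS and 4.94 to 12.0% in RGLS4326 libraries, so this share moved with the groups. Library numbers in the deposited names restart, which gives 3 runs of numbers, here called numbering series 1, 2 and 3, and each series held 3 or 4 mice of every group. PBS replicate 9 stood farthest out on the second principal component, and counts with and without it are given. The tissue label was borne out by 10 proximal tubule markers, whose summed level in UNT kidneys was 13314 to 17799 CPM (counts relative to library size after TMM scaling), with none at 0.

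Many lysosomal promoters hold the letters CACGTG, the core of the element that TFEB and TFE3 bind, and the longer form TCACGTGA contains that core. Both forms read the same on either strand. RefSeq windows from 250 bases before to 50 bases after the start site (GRCm38.p6) were matched by symbol for 37 of the 41 genes, and not for *Asah1*, *Ctsb*, *Ctsh* and *Npc1*. The core stood in 12 of the 37 (32.4%), against 1285 of 11545 tested genes with a window (11.1%) and 7.15% of all 32851 windows. The longer form stood in 4 of the 37 (10.8%), against 1.97% of tested genes and 0.974% of all windows. The window of *Lamp1* held 4 cores in the 80 bases before its start site. That stretch is shown because it has the densest run of the motif among these genes, and after it comes 1 match of the longer form from each gene that has it. *Ctsa* and *Gla* each hold 2 such matches, of which 1 is shown. Capitals mark the core, and each sequence is in the direction of the gene.
*Lamp1* (chr8:13159081-13159160, plus strand): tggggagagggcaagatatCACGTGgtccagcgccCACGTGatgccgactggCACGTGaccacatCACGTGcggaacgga
*Ctsd* (chr7:142387909-142387936, minus strand): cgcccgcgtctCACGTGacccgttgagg
*Ctsa* (chr2:164833750-164833777, plus strand): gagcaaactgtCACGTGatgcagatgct
*Gla* (chrX:134601183-134601210, minus strand): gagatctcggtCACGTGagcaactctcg
*Mcoln1* (chr8:3500463-3500490, plus strand): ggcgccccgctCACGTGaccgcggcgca

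The other genes with the core were *Arsa*, *Ctsl*, *Gaa*, *Glb1*, *Lgmn*, *Naglu* and *Sgsh*. A match is a string of letters and does not show that a factor was bound. Among the 12 genes with the core, 6 were higher and 3 were lower in PBS than in UNT kidneys, with a median log2 fold change of 0.20. Among the 25 with a window but no core, 14 were higher and 9 lower, with a median of 0.24. Over all tested genes, 43.1% were higher and 39.0% lower, so nothing particular to the core is read from these counts.

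Per kilobase of exon, the most abundant of the 41 transcripts in UNT kidneys was *Lamp1*, a major glycoprotein of the lysosomal membrane, at a mean of 477 CPM per kb. It was followed by *Psap*, the precursor of the saposins that help enzymes reach sphingolipids, at 393, by *Lgmn*, the asparaginyl protease legumain, at 312, and by *Ctsd*, the aspartic protease cathepsin D, at 258 CPM per kb. The order was different in PBS kidneys. There *Ctsd* came first at 1035 CPM per kb, ahead of *Psap* at 638 and *Lamp1* at 396. *Ctss*, a cysteine protease of antigen-presenting cells, stood at 7.39 CPM per kb in UNT and at 206 in PBS kidneys, where it was the fifth most abundant. The lowest levels per kb in UNT kidneys were those of *Gla*, the galactosidase deficient in Fabry disease, at 2.21 and of *Npc1*, the cholesterol exporter of the lysosomal membrane, at 2.83 CPM per kb. Lengths were those of GENCODE M21, which may differ from the annotation used for counting.

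Summed over the 41 genes, lysosomal mRNA took 10277 ± 440 CPM (SD, n = 12) in UNT, 13773 ± 1409 (n = 11) in PBS and 11917 ± 1964 (n = 11) in RGLS4326 kidneys. The lowest PBS kidney (11609 CPM) was above the highest UNT kidney (11213 CPM), while RGLS4326 kidneys (9071 to 15006 CPM) overlapped both groups. *Ctsd* made up 5.92% of this sum in UNT and 17.4% in PBS kidneys. *Lamp2*, the partner of LAMP1 in the lysosomal membrane and a receptor for selective autophagy, made up 8.20% in UNT and 4.05% in PBS kidneys. Mice within a group also differed. The coefficient of variation of a gene between mice had a median of 9.39% in UNT, 13.9% in PBS and 15.8% in RGLS4326 kidneys, and it was highest for *Ctss* among PBS mice, at 31.2%.

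To examine how the lysosomal transcripts differ between cystic and normal kidney, PBS-treated *Pkd2*-KO mice were compared with UNT mice. The genes did not move as 1 block. Of the 41, 23 (56.1%) were higher, 12 (29.3%) were lower and 6 were not called at an adjusted p under 0.05 in edgeR's quasi-likelihood test, adjusted over all tested genes by Benjamini-Hochberg. Over all 15644 tested genes, 43.1% were called higher and 39.0% lower. The median log2 fold change was 0.27 for the 41 genes and 0.04 for all tested genes, but with the percentage of reads outside genes as a covariate these medians were 0.01 and 0.03, and 20 of the 41 values were below 0. In 23 of the 41 (56.1%) the CPM ranges of the 2 groups did not overlap, 18 with every PBS mouse above every UNT mouse and 5 with every PBS mouse below, against 42.5% of all tested genes. Of the called genes, 10 of the 41 (24.4%) were above a log2 fold change of 1 and none was below -1, against 2851 (18.2%) and 2197 of all 15644 tested genes. Whole kidney was measured, so fewer cells of a type and less RNA per cell cannot be told apart.

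**Figure D1:**
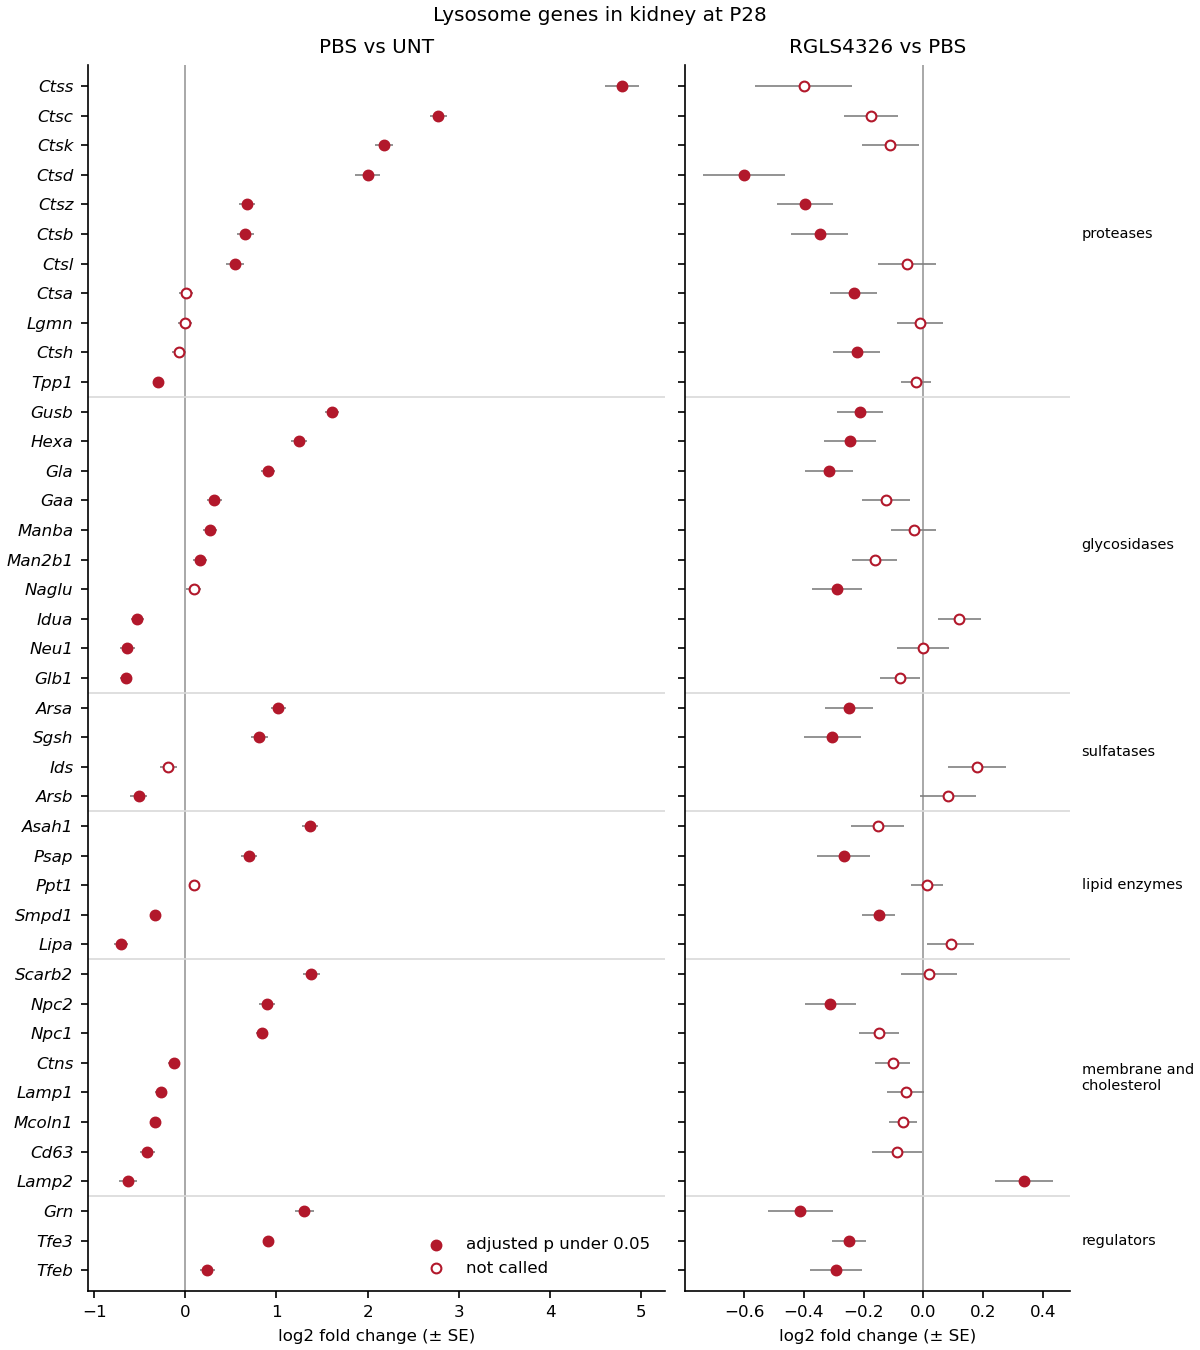
Log2 fold changes (horizontal axes, with standard errors) of the 41 lysosome genes, grouped by role, for PBS against UNT kidneys on the left and RGLS4326 against PBS kidneys on the right, on different horizontal scales. Filled points passed an adjusted p under 0.05. On the left *Ctss* stands out at 4.79 and points fall on both sides of 0, and on the right 17 filled points lie below 0 and 1, *Lamp2*, above.

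The proteases held the largest rises. Of 11, 7 were higher, 1 was lower and 3 were not called, against 43.1% higher and 39.0% lower of all tested genes. *Ctss* (chr3:95526786-95556403, plus strand, GRCm38) ran from 7.56 to 17.8 CPM in UNT mice, with a median of 9.30. In PBS mice it ran from 124 to 411 CPM, with a median of 259. The groups were far apart, and even the lowest PBS kidney was well above the highest UNT kidney. Its log2 fold change was 4.79 ± 0.18 (SE), a 27.7-fold difference, with an adjusted p of 1.26e-22.

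*Ctsc* (chr7:88278085-88310888, plus strand) encodes the dipeptidyl peptidase that activates the serine proteases of immune cells. It ran from 20.5 to 29.2 CPM (median 26.1) in UNT and from 129.5 to 204 CPM (median 183) in PBS mice. The groups did not overlap, and the log2 fold change was 2.77 ± 0.09. *Ctsk* (chr3:95499256-95509362, plus strand), the collagen-cutting protease best known from osteoclasts, ran from 7.64 to 11.7 CPM (median 9.88) in UNT and from 30.7 to 54.6 CPM (median 43.3) in PBS mice. It also separated the groups, with a log2 fold change of 2.18 ± 0.10.

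*Ctsd* (chr7:142375911-142388038, minus strand) was at 561 to 655 CPM (median 601) in UNT mice and at 1639 to 3303 CPM (median 2304) in PBS mice. UNT mice lay close together, while PBS mice spread widely and all of them stood above the UNT range. The log2 fold change was 2.0 ± 0.14, with an adjusted p of 1.29e-15. In GENCODE M21, 34.4% of the exonic bases of *Ctsd* are shared with a second gene model on the same strand, so its counts depend on how such reads were assigned. *Ctsz* (chr2:174427493-174439039, minus strand), a carboxypeptidase, was at 96.6 to 124 CPM (median 108) in UNT and at 128 to 262 CPM (median 166) in PBS mice. Its ranges only just separated, and the log2 fold change was 0.68 ± 0.09, or 0.28 with the percentage of reads outside genes as a covariate.

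*Ctsb* and *Ctsl*, abundant cysteine proteases, were higher by 0.66 ± 0.09 and 0.55 ± 0.10 on the log2 scale. With the percentage of reads outside genes as a covariate they were at 0.21 and 0.16, and *Ctsl* lost its call (adjusted p = 0.203). *Tpp1*, a tripeptidyl peptidase, was the protease called lower, at -0.30 ± 0.05, with every PBS mouse below every UNT mouse. The remaining 3 were not called. *Ctsa*, which protects neuraminidase and beta-galactosidase in a complex, was at 0.00 ± 0.08, *Lgmn* at -0.00 ± 0.08, and *Ctsh*, an aminopeptidase, at -0.07 ± 0.08.

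Among the 10 glycosidases, 6 were higher, 3 lower and 1 was not called, where 43.1% of all tested genes were higher and 39.0% lower. *Gusb*, which removes glucuronic acid from glycosaminoglycans, was higher by 1.61 ± 0.08 on the log2 scale, and *Hexa*, the hexosaminidase subunit deficient in Tay-Sachs disease, by 1.25 ± 0.09. *Gla* was higher by 0.91 ± 0.08. Smaller rises were those of *Gaa*, the acid glucosidase that breaks down glycogen, at 0.32, of *Manba* at 0.27 and of *Man2b1* at 0.16, both mannosidases. The call of *Man2b1* was lost in 7 of 11 alternatives and those of *Gaa* and *Manba* in 2 each, in numbering series 3 alone and with the covariate for reads outside genes, where *Gaa* was at 0.01 and *Manba* at 0.04. *Naglu*, which acts on heparan sulfate, was at 0.09 ± 0.08 and was not called.

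*Glb1* (chr9:114401076-114474898, plus strand), the beta-galactosidase, moved the other way. It ran from 132 to 179.6 CPM (median 152) in UNT and from 82.0 to 108 CPM (median 97.2) in PBS mice, with no overlap and a log2 fold change of -0.65 ± 0.07. *Neu1* (chr17:34931253-34935953, plus strand), the sialidase that acts in a complex with it, ran from 218 to 336 CPM (median 264) in UNT and from 149 to 215 CPM (median 174) in PBS mice. Its ranges also separated, narrowly, with a log2 fold change of -0.63 ± 0.09. *Idua*, the iduronidase deficient in Hurler syndrome, was lower by -0.53 ± 0.07 on the log2 scale.

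The 4 sulfatases split. *Arsa*, which removes sulfate from sulfatides, was higher by 1.02 ± 0.08 and *Sgsh*, the heparan sulfamidase, by 0.81 ± 0.09. *Arsb*, which acts on dermatan and chondroitin sulfate, was lower, at -0.51 ± 0.09. *Ids*, the iduronate sulfatase, was at -0.19 ± 0.09 and was not called.

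Of the 5 lipid genes, *Asah1*, the acid ceramidase, was higher by 1.36 ± 0.09 and *Psap* by 0.70 ± 0.09. *Lipa* (chr19:34492318-34527474, minus strand), the acid lipase that frees cholesterol and fatty acids, showed the steepest fall of all 41 genes. It ran from 271 to 429 CPM (median 333) in UNT and from 173 to 245 CPM (median 205) in PBS mice. The groups did not overlap, and the log2 fold change was -0.70 ± 0.08, with an adjusted p of 2.70e-10. *Smpd1*, the acid sphingomyelinase, was lower as well, at -0.33 ± 0.05. *Ppt1*, which removes palmitate from proteins, was not called, at 0.09 ± 0.05.

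Of the 8 membrane and cholesterol genes, 3 were higher and 5 lower, in a comparison that called 43.1% of all tested genes higher and 39.0% lower. *Scarb2*, the receptor that carries glucocerebrosidase to the lysosome, was higher by 1.38 ± 0.09. *Npc2* and *Npc1*, which hand cholesterol on to leave the lysosome, were higher by 0.90 ± 0.08 and 0.84 ± 0.07. *Lamp1* (chr8:13159161-13175338, plus strand) ran from 1181 to 1424 CPM (median 1253) in UNT and from 962 to 1189 CPM (median 1048) in PBS mice. Only 1 of 11 PBS mice reached into the UNT range, and the log2 fold change was -0.27 ± 0.06.

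*Lamp2* (chrX:38401357-38456454, minus strand) ran from 719 to 1111 CPM (median 801) in UNT and from 349.8 to 724 CPM (median 545) in PBS mice. Here too 1 of 11 PBS mice lay within the UNT range. The log2 fold change was -0.63 ± 0.10, with an adjusted p of 2.39e-07. The remaining falls were those of *Cd63*, a tetraspanin of late endosomes, at -0.42, of *Mcoln1*, the calcium channel mucolipin 1, at -0.33, and of *Ctns*, the cystine exporter, at -0.13. The call of *Ctns* was lost in 5 of 11 alternatives.

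All 3 regulators were higher, where 43.1% of all tested genes were higher and 39.0% lower. *Grn* (chr11:102430315-102437048, plus strand), the precursor of granulins that support lysosomal enzymes, ran from 141 to 195 CPM (median 185) in UNT and from 325 to 549.8 CPM (median 435) in PBS mice. The groups stood well apart, with a log2 fold change of 1.30 ± 0.11. *Tfe3* (chrX:7762560-7775202, plus strand) ran from 30.5 to 37.5 CPM (median 34.4) in UNT and from 54.3 to 74.0 CPM (median 65.1) in PBS mice. It separated the groups as well, with a log2 fold change of 0.91 ± 0.06.

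*Tfeb* (chr17:47737030-47792419, plus strand) ran from 23.8 to 38.8 CPM (median 33.8) in UNT and from 29.9 to 49.6 CPM (median 40.8) in PBS mice. In contrast to *Tfe3* it overlapped, with 5 of 11 PBS mice inside the UNT range, and its log2 fold change was 0.24 ± 0.08 with an adjusted p of 0.00965. Its call was lost in 4 of 11 alternatives, and with the percentage of reads outside genes as a covariate its log2 fold change was -0.15. With that covariate, 18 of the 41 genes were higher and 15 were lower, against 37.0% and 33.1% of all tested genes. Among the other called genes whose value it moved by more than 1.5 times, *Grn* was then at 0.80, *Npc2* at 0.52, *Sgsh* at 0.47 and *Psap* at 0.31, all nearer to 0, while *Cd63* was at -0.77, *Smpd1* at -0.60 and *Lamp1* at -0.49, all farther from it. Levels of mRNA do not show where TFEB and TFE3 proteins were in the cell.

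**Figure D2:**
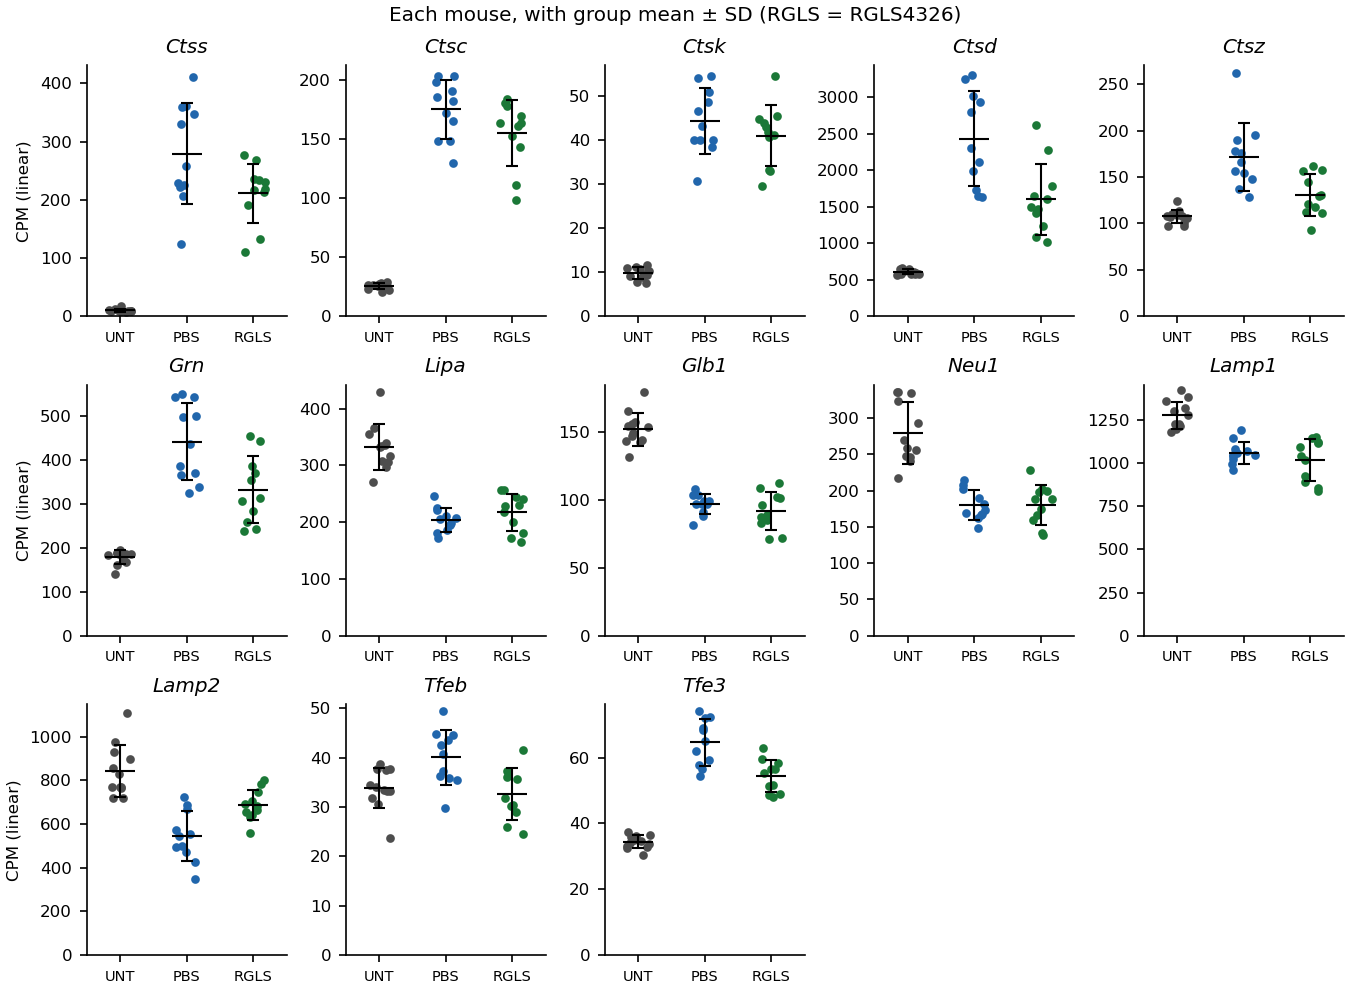
CPM (vertical axes, linear from 0) of 13 lysosome genes in each mouse, with the group mean and SD in black, for 12 UNT, 11 PBS and 11 RGLS4326 mice. *Ctss*, *Ctsc*, *Ctsk*, *Ctsd*, *Ctsz*, *Grn* and *Tfe3* were above the UNT range in every PBS mouse, *Lipa*, *Glb1* and *Neu1* below it, and RGLS4326 mice overlapped PBS mice in every panel.

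Markers of other cell types moved with these differences. All 10 macrophage markers were higher in PBS than in UNT kidneys, with a median log2 fold change of 4.38, and their summed level was 119 to 208 CPM in UNT and 1065 to 3251 CPM in PBS mice. All 10 proximal tubule markers were lower, with a median of -2.64, and summed to 1623 to 4700 CPM in PBS mice. No marker of either list was at 0 throughout a group. Fibroblast markers were also higher (6 of 6, 602 to 1498 CPM summed in UNT and 3184 to 6613 in PBS mice), as were principal cell markers (6 of 6, 579 to 946 and 954 to 2442 CPM). Of the markers tested, 4 of 5 for T cells and 4 of 4 for neutrophils were higher. Lower were 4 of 5 markers each for thick ascending limb, intercalated cells and podocytes, with 1 of each higher. For endothelium 3 of 5 were lower and 2 higher. For distal convoluted tubule and hepatocytes 4 of 4 each were lower. Over all tested genes 43.1% were higher and 39.0% lower. The part of these cell types in the lysosomal differences was not tested. The sign of the pooled value was kept in all 3 numbering series by all 35 called genes, which were chosen on the same mice, and by 2 of the 6 that were not called.

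A wider list of 105 lysosome, autophagy and proton pump genes, of which 104 were tested, was examined in the same way. In PBS against UNT kidneys 39 (37.5%) were higher, 47 (45.2%) were lower and 18 were not called, against 43.1% higher and 39.0% lower of all tested genes, and the median log2 fold change was -0.05. *Rnaset2a* was the gene not tested. Among 25 other hydrolases 13 were higher and 10 lower. *Ctse*, an aspartic protease of endosomes, was higher by 2.42 ± 0.18 and *Naaa*, an acid amidase, by 1.87 ± 0.09. Among 18 other membrane proteins 10 were higher and 6 lower, led by *Laptm5* at 4.09 ± 0.18 and *Cd68* at 3.83 ± 0.19, both known from blood-derived cells and macrophages.

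Of 17 proton pump subunits, 9 were lower, 2 were higher and 6 were not called, where 39.0% of all tested genes were lower. In the V1 part, which hydrolyses ATP in the cytoplasm, 7 of 8 tested subunits were lower. *Atp6v1a* fell by 0.88 ± 0.09 and *Atp6v1g1* by 0.81 ± 0.09 on the log2 scale. In the V0 part, which passes protons through the membrane, 2 of 7 subunits were higher and 1 lower. Intercalated cells, which use the same pump at their surface, had 4 of 5 markers lower and 1 higher. These markers include *Atp6v1b1* and *Atp6v1g3*, themselves V1 subunits, so the marker list is not independent of the pump. The part of these cells in the pump values was not tested.

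Counts for the remaining roles are given beside the 39.0% lower and 43.1% higher of all tested genes, and nothing particular to a role is read from them. Genes of mTORC1 control at the lysosome were lower in 8 of 15 cases and higher in 4. *Mtor*, the kinase itself, fell by 1.28 ± 0.09 and *Fnip2*, a partner of folliculin, by 1.37 ± 0.12 on the log2 scale. The MiT relatives of *Tfeb* and *Tfe3* fell too, *Tfec* by 0.80 ± 0.15 and *Mitf* by 0.50 ± 0.09. Of 15 autophagy genes 7 were lower, among them *Gabarapl1* at -1.12 ± 0.09, and 5 were higher, among them *Atg7* at 0.82 ± 0.09. Of 12 sorting genes, 5 were higher and 5 lower. *Sort1*, a sorting receptor, was higher by 1.28 ± 0.10, and *Gnptab*, the subunit of the enzyme that tags hydrolases for lysosomes, by 0.88 ± 0.06.

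**Figure D3:**
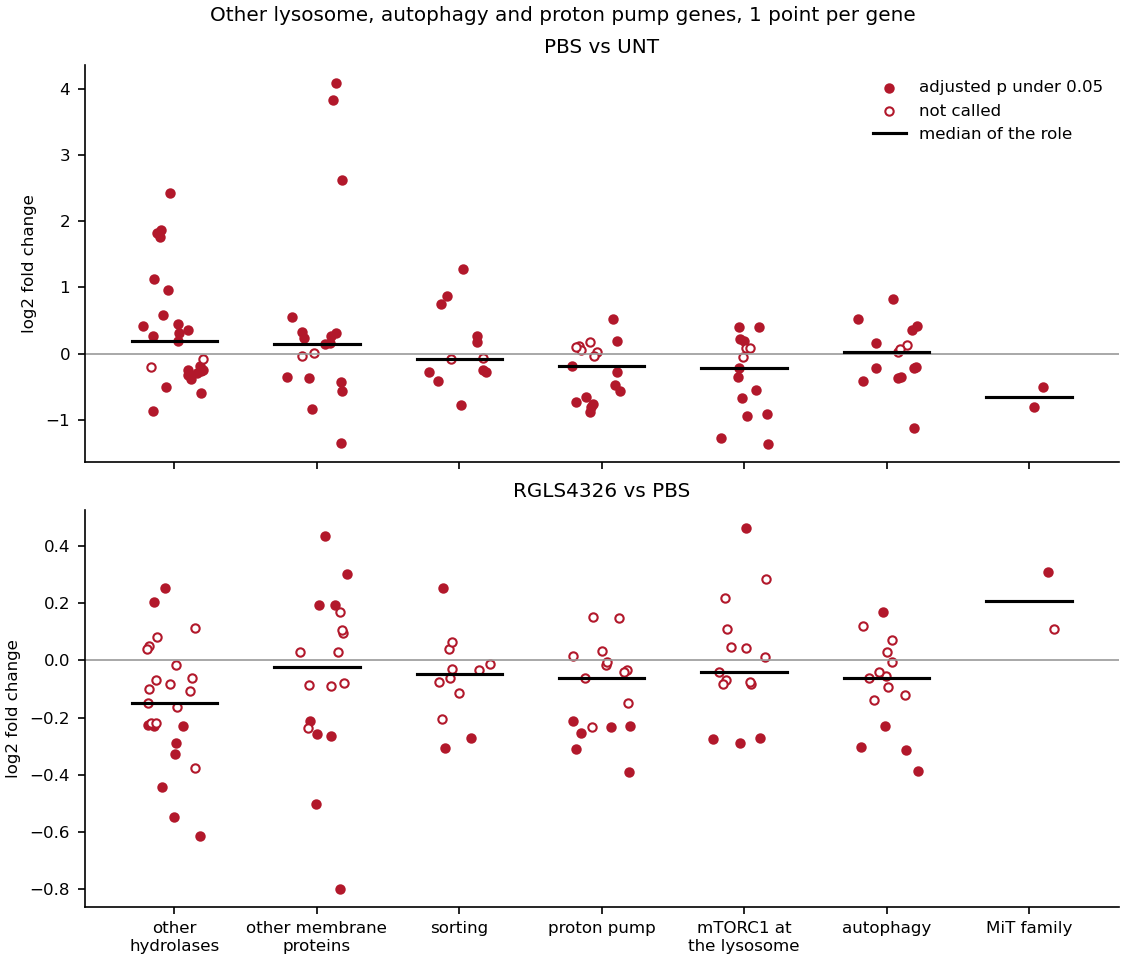
Log2 fold changes (vertical axes, different scales) of the 104 other lysosome, autophagy and proton pump genes tested, 1 point per gene by role, for PBS against UNT kidneys above and RGLS4326 against PBS kidneys below. Filled points passed an adjusted p under 0.05 and bars are medians. *Laptm5* (4.09) and *Cd68* (3.83) are the highest points above, and *Cd68* (-0.80) is the lowest point below.

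To examine how these transcripts differ in cystic kidney after the oligonucleotide, RGLS4326-treated mice were compared with PBS-treated mice. Without a control oligonucleotide in the comparison, inhibition of miR-17 cannot be told apart from other effects of the injection. Of the 41 genes, 17 (41.5%) were lower, 1 (2.44%) was higher and 23 were not called. Over all tested genes, 18.5% were called lower and 15.3% higher. The changes were small. The median log2 fold change was -0.15 for the 41 genes and 0.00 for all tested genes, no gene reached an absolute value of 1, and in none did the 2 groups separate completely, which 10 of all 15644 tested genes did.

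These calls changed with the libraries and covariates in the fit. With the percentage of reads outside genes as a covariate, edgeR called 0 of the 41 genes and 89 of all tested genes (0.358% higher and 0.211% lower). At an unadjusted p under 0.05 were 7 of the 41 (5 lower and 2 higher) and 3199 of all 15644 tested genes. The median log2 fold change of the 41 genes was then -0.04, with 24 values below 0, against -0.15 without the covariate. Within numbering series 2 alone, 18 genes were lower and 1 was higher, against 11.9% lower and 13.6% higher of all genes tested there, and the median of the 41 was -0.26. These were partly different genes. The higher gene there was *Idua* (0.38), *Gla*, *Gusb* and *Tfe3* were not called, and *Glb1*, *Gaa*, *Cd63* and *Man2b1* were called lower. Within numbering series 1 and 3 alone, edgeR called 0 of the 41, and 15 and 4 of them had an unadjusted p below 0.05. Few genes of any kind were called in those fits. In series 1 they were 54 of 15737 tested (0.261% higher and 0.0826% lower), and in series 3 they were 0 of 15676. At an unadjusted p below 0.05 were 3421 of all genes tested in series 1 and 2826 in series 3. Other tools were not run within a series, whereas over all 34 libraries the Wald test of DESeq2 called 18 lower and 1 higher. In series 1, 2 and 3, 28, 37 and 27 of the 41 log2 fold changes were below 0. The sign was the same in all 3 series for the 18 called genes, which were chosen on the same mice, and for 9 of the 23 that were not called. Without PBS replicate 9, a fit added after the data were seen, 13 were lower and 1 higher, against 13.2% and 12.8% of all tested genes, and *Ctsa*, *Ctsh*, *Gusb* and *Hexa* were the genes that lost the call. With PBS and RGLS4326 mice fitted alone, *Ctsh*, *Gusb*, *Hexa* and *Smpd1* lost it.

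**Figure D4:**
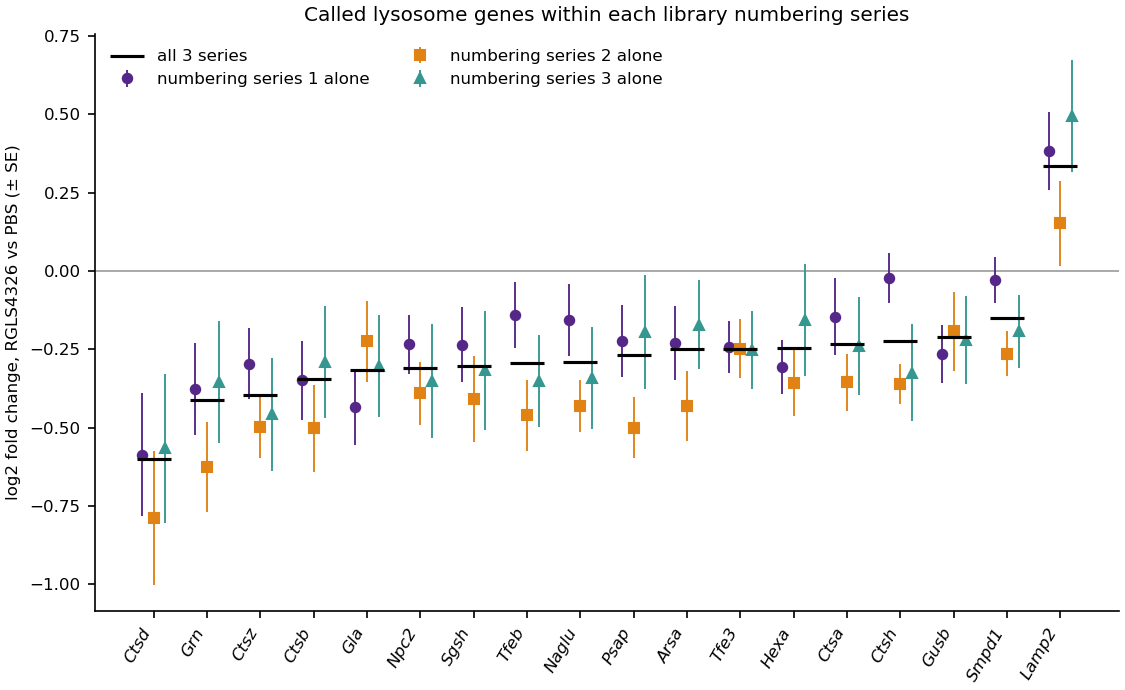
Log2 fold change between RGLS4326 and PBS kidneys (vertical axis, with standard errors) of the 18 called lysosome genes, fitted within each library numbering series (colored symbols) and over all 3 (black bars). All symbols of the first 17 genes lie below 0 and those of *Lamp2* above 0, and most of the lowest values belong to numbering series 2.

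Proteases fell in 5 of 11 cases and rose in none, where 18.5% of all tested genes were lower and 15.3% higher. *Ctsd* showed the steepest fall of the 41 genes. In RGLS4326 mice it ran from 1014 to 2618 CPM with a median of 1492, compared with the PBS median of 2304. Of 11 treated mice, 10 were below the PBS median and 7 were below every PBS mouse, yet none was within the UNT range. The log2 fold change was -0.60 ± 0.14, a ratio of 0.659, with an adjusted p of 0.00347, and it was -0.59, -0.79 and -0.57 within the 3 series and -0.31 with the covariate for reads outside genes.

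*Ctsz* ran from 93.0 to 162 CPM in treated mice, with a median of 129.9 against 166 in PBS mice. All 11 treated mice were below the PBS median and 4 were inside the UNT range. Its log2 fold change was -0.40 ± 0.09 with an adjusted p of 0.00418. *Ctsb*, *Ctsa* and *Ctsh* also fell, by 0.35 ± 0.10, 0.23 ± 0.08 and 0.22 ± 0.08 on the log2 scale. Of 11 alternatives, *Ctsb* lost its call in 3, *Ctsa* in 4 and *Ctsh* in 5, the last with a value as small as -0.02 in series 1 alone. In PBS against UNT kidneys the values of these 3 genes were 0.66, 0.00 and -0.07.

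The 3 proteases with the largest rises in cystic kidney were not called after treatment. *Ctss* ran from 110.3 to 276 CPM in treated mice, with a median of 219 against 259 in PBS mice. Its log2 fold change of -0.40 had a 95% interval of -0.72 to -0.08 and an adjusted p of 0.0527, and 9 of 11 treated mice were below the PBS median. *Ctsc* ran from 98.8 to 184 CPM (median 164) and *Ctsk* from 29.6 to 54.6 CPM (median 41.8) in treated mice. Their log2 fold changes were -0.18 (interval -0.35 to -0.00) and -0.11 (interval -0.30 to 0.08). No treated mouse was inside the UNT range for any of these 3 genes.

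All 3 regulators fell, where 18.5% of all tested genes were lower and 15.3% higher. None of them was called with the covariate for reads outside genes. *Grn* ran from 239 to 454 CPM in treated mice, with a median of 313 against 435 in PBS mice. Its log2 fold change was -0.41 ± 0.11 (adjusted p = 0.00694), and no treated mouse was inside the UNT range. *Tfe3* ran from 48.0 to 63.0 CPM with a median of 55.4 against 65.1. All 11 treated mice were below the PBS median, and the log2 fold change of -0.25 ± 0.06 (adjusted p = 0.00334) was almost the same within the series, at -0.24, -0.25 and -0.25.

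*Tfeb* ran from 24.6 to 41.6 CPM in treated mice, with a median of 31.8 against 40.8 in PBS and 33.8 in UNT mice. Of 11 treated mice 10 were inside the UNT range. Its log2 fold change was -0.29 ± 0.09 (adjusted p = 0.0126), and with the covariate for reads outside genes it was -0.11, against -0.17 for *Tfe3* and -0.18 for *Grn*.

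*Lamp2* was the gene that rose. It ran from 560.0 to 800.0 CPM in treated mice, with a median of 684 against 545 in PBS and 801 in UNT mice. All 11 treated mice were above the PBS median, 3 were above every PBS mouse and 3 were inside the UNT range. The log2 fold change was 0.34 ± 0.10, a ratio of 1.26, with an adjusted p of 0.0109. Within the series it was 0.38, 0.15 and 0.49, and with the covariate it was 0.32, with an adjusted p of 0.113. It was called in none of the 3 series alone. *Lamp1* did not pass the test in the same comparison. It ran from 836 to 1151 CPM (median 1039.8) in treated mice, with a log2 fold change of -0.06 and an interval of -0.18 to 0.06.

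In the other groups, 4 of 10 glycosidases fell, against 18.5% lower and 15.3% higher of all tested genes. *Gla* and *Naglu* fell by 0.32 ± 0.08 and 0.29 ± 0.08, and *Hexa* and *Gusb* by 0.25 ± 0.09 and 0.21 ± 0.08 on the log2 scale. The call of *Hexa* was lost in 5 and that of *Gusb* in 6 of 11 alternatives. The remaining 6 ranged from -0.16 for *Man2b1* to 0.12 for *Idua*. Of the sulfatases, *Sgsh* fell by 0.30 ± 0.09 and *Arsa* by 0.25 ± 0.08, whereas *Ids* was at 0.18 and *Arsb* at 0.08, neither of them called. *Psap* fell by 0.27 ± 0.09 and *Smpd1* by 0.15 ± 0.06, a call lost in 4 of 11 alternatives. *Npc2* was the membrane and cholesterol gene that fell, by 0.31 ± 0.09.

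The 3 genes with the largest falls in cystic kidney did not pass the test. *Lipa* ran from 166 to 256 CPM (median 228) in treated mice, with a log2 fold change of 0.09 and an interval of -0.06 to 0.25. *Glb1* ran from 71.1 to 113 CPM (median 89.3), at -0.08 with an interval of -0.21 to 0.05. *Neu1* ran from 138 to 229 CPM (median 189), at -0.00 with an interval of -0.17 to 0.17. For each of these 3 genes at most 1 treated mouse lay within the UNT range.

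Markers moved with the treatment as well, in a comparison that called 18.5% of all tested genes lower and 15.3% higher. Of 10 macrophage markers 6 were lower and 0 higher, with a median log2 fold change of -0.47 and a summed level of 1009.7 to 2060.1 CPM in treated mice. Of 10 proximal tubule markers 5 were higher, with a median of 0.56 and a summed level of 2828 to 5031 CPM. Principal cell markers were lower in 4 of 6 cases, from 954 to 2442 CPM summed in PBS and 508 to 2145 CPM in treated mice. Of the tested markers, 4 of 5 for T cells, 1 of 4 for neutrophils and 1 of 5 for intercalated cells were lower. Higher were 4 of 5 each for thick ascending limb (1 lower), podocytes and endothelium, 2 of 4 for distal convoluted tubule and 1 of 6 for fibroblasts. Hepatocyte markers ranged from -0.34 to 0.52 on the log2 scale. In mean summed level, thick ascending limb markers were at 3572 CPM in PBS and 4642 CPM in treated mice, and T cell markers at 18.0 and 11.4 CPM. No tested marker was at 0 throughout a group, and the part of these cell types in the lysosomal changes was not tested.

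In the wider list 28 of 104 tested genes (26.9%) were lower, 10 (9.62%) were higher and 66 were not called, against 18.5% lower and 15.3% higher of all tested genes. *Cd68* fell by 0.80 ± 0.17, *Ctse* by 0.61 ± 0.17, *Pla2g15*, a lysosomal phospholipase, by 0.55 ± 0.11, and *Laptm5* by 0.50 ± 0.17 on the log2 scale. Proton pump subunits were lower in 6 of 17 cases and higher in 0, and here 4 of the 6 belonged to the V0 part. *Atp6v1f* fell by 0.39 ± 0.09 and *Atp6v0d1* by 0.31 ± 0.08.

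For the roles that follow, all tested genes were again 18.5% lower and 15.3% higher, and nothing particular to a role is read from the counts. Of the mTORC1 genes, *Fnip1* rose by 0.46 ± 0.14 and *Lamtor1*, an anchor of the complex, fell by 0.29 ± 0.08, with 1 of 15 higher and 3 lower in all. Autophagy genes were lower in 4 of 15 cases, led by *Map1lc3a* at -0.39 ± 0.10 and *Atg7* at -0.31 ± 0.09, and 1 was higher. Of the sorting genes, *Gga1* fell by 0.31 ± 0.07 and *Nagpa*, the uncovering enzyme of the mannose 6-phosphate tag, by 0.27 ± 0.08. *Mitf* rose by 0.31 ± 0.09.

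Since the oligonucleotide pairs with the miR-17 seed, matches to that seed were looked for in the longest 3′UTR that GENCODE M21 (GRCm38) gives a gene. The mature microRNA in RefSeq is shown with its seed, bases 2 to 8, in capitals.
miR-17-5p: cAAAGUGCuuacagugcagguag

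A short match was either GCACTTT, which pairs with the whole seed, or a run shifted by 1 base that ends in an A, CACTTTA. The long form GCACTTTA contains both of them. Matches were read on the transcript strand. At least 1 was found in 6 of the 41 genes (14.6%), *Ctsa*, *Idua*, *Lamp2*, *Neu1*, *Npc1* and *Ppt1*, against 21.2% of 14193 tested genes with a 3′UTR. The long form was in 2 of the 41 (4.88%), *Idua* and *Ppt1*, against 4.26%. The sites of *Lamp2*, the gene that rose, and of the 2 genes with the long form are shown with the match in capitals.
*Lamp2* (chrX:38420213-38420241, minus strand): agagattgtgtCACTTTAacttgttgtcg
*Lamp2* (chrX:38419656-38419684, minus strand): gatattttccaCACTTTAgaatttgtata
*Idua* (chr5:108683538-108683567, plus strand): tttgtggctaaGCACTTTAtaggcccagtt
*Ppt1* (chr4:122857633-122857658, plus strand): agccctgGCACTTTAtagcagagttc

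The 6 genes with a match had log2 fold changes from -0.23 to 0.34 under treatment, with a median of 0.01. They included the 1 that rose and 1 that fell, *Ctsa*, and 4 were not called. *Idua* was at 0.12 and *Ppt1* at 0.01. The 35 genes without a match ranged from -0.60 to 0.18, with a median of -0.16, and 16 of them fell. A match of letters does not show that the microRNA acted on a transcript.

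RGLS4326-treated mice were finally set against UNT mice, groups that share their members with the comparisons above. Of the 41 genes, 21 (51.2%) were higher, 15 (36.6%) lower and 5 not called, against 40.8% higher and 36.9% lower of all tested genes. In numbering series 2 alone 14 were higher and 17 lower, where 10235 of 15944 tested genes were called. With the covariate for reads outside genes 17 were higher and 18 lower, where 11979 of 15644 were called. The ranges of the 2 groups did not overlap for 19 genes (46.3%), against 36.7% of all tested genes, with 13 above and 6 below. *Ctss* was at a log2 fold change of 4.39 ± 0.18, *Ctsc* at 2.60 ± 0.09, *Ctsk* at 2.07 ± 0.10 and *Ctsd* at 1.40 ± 0.14. *Glb1*, *Neu1* and *Lipa* were at -0.73 ± 0.07, -0.63 ± 0.09 and -0.61 ± 0.08. *Lamp2* was lower by -0.29 ± 0.09, and *Tfeb* was at -0.05, with an interval of -0.22 to 0.12.

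Across the 104 tested genes of the wider list, 31 (29.8%) were higher, 48 (46.2%) were lower and 25 were not called in treated against UNT kidneys, where 40.8% of all tested genes were higher and 36.9% lower. All 8 tested subunits of the V1 part of the pump were lower. *Laptm5* was at 3.58 ± 0.18, *Cd68* at 3.03 ± 0.18, *Ctse* at 1.81 ± 0.17, *Naaa* at 1.58 ± 0.09, *Sort1* at 1.07 ± 0.10 and *Atg7* at 0.51 ± 0.09. Among lower genes, *Atp6v1e1* was at -0.88 ± 0.07, *Gnptg*, the gamma subunit of the tagging enzyme, at -0.85 ± 0.06, *Atp6v1g1* at -0.82 ± 0.09, *Mtor* at -1.06 ± 0.09, *Fnip2* at -1.09 ± 0.12, *Gabarapl1* at -1.09 ± 0.09, *Tfec* at -0.69 ± 0.15 and *Mitf* at -0.19 ± 0.09.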

How the data were processed

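Messenger RNA was measured in kidney of 34 mice, with groups taken from the labels. The authors prepared stranded libraries from polyadenylated RNA, trimmed reads with Trim Galore, mapped them with STAR to GRCm38 (mm10) and counted uniquely mapped reads with HTSeq 0.6.1, per the labels and the study's methods. Each mouse has 1 deposited table of raw counts by gene symbol, without normalization. The annotation, the STAR version and whether counting used strand are not given in the sources used here, so counts of the 15 lysosome genes whose exons overlap another gene in GENCODE M21 (*Arsa*, *Arsb*, *Ctsa*, *Ctsb*, *Ctsd*, *Ctsl*, *Ctsz*, *Glb1*, *Grn*, *Hexa*, *Idua*, *Lamp1*, *Npc1*, *Ppt1* and *Sgsh*) are uncertain.

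Rows that named no gene were kept out of library sizes. All libraries entered 1 fit with 3 groups and no covariate in edgeR 4.0.16 (R 4.3.3), with TMM scaling, filterByExpr, the two-sided quasi-likelihood test and Benjamini-Hochberg adjustment over all tested genes, called at 0.05. Standard errors (SE) are the log2 fold change over the root of the F statistic, and 95% intervals span 1.96 SE on each side, which is a normal approximation. Per-mouse values are given as lowest, median and highest for the 3 genes with the largest called change in each direction of both main comparisons, for *Tfeb*, *Tfe3*, *Grn*, *Lamp1* and *Lamp2*, and others are given within their role. From the wider list the 2 largest called changes per role are named. The 41 genes, the wider list and the markers were chosen with earlier results of these data known. On simulated counts for RGLS4326 vs PBS (15386 genes), 96 of 100 changes of log2 1 and 75 of 100 of log2 0.5 were recovered. Smaller changes, such as most of those of the 41 genes in this comparison, were not simulated. The simulated counts held no difference between numbering series or in the share of reads outside genes. DESeq2 1.42.0 served as an alternative and Python 3.11.15 with pandas 2.3.3 and matplotlib 3.10.9 for summaries. Nothing in the labels says that the mice of a group came from separate litters, so p-values measure the spread between these mice.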

Additional observations from a re-analysis of the deposited data

How the results depend on the processing

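Of 1312 log2 fold changes of the 41 genes recomputed under 11 alternatives, 1116 kept their sign and their side of the threshold, 110 lost a call with the same sign, 26 gained one and 60 changed sign. In 54 of those 60 neither value was called. The other 6 were *Ctsa* (-0.33), *Man2b1* (-0.17), *Naglu* (-0.30) and *Tfeb* (-0.15) in PBS vs UNT with the percentage of reads outside genes as a covariate, and *Ctsb* (-0.012) and *Gaa* (-0.12) in RGLS4326 vs UNT in the second numbering series alone, and the cause was not tested. For RGLS4326 vs PBS the counts of 17 lower and 1 higher became 0 and 0 in the first series alone, in the third series alone and with the percentage of reads outside genes as a covariate. A series alone holds 7 or 8 mice of these 2 groups. Counts in PBS vs UNT (23 higher, 12 lower) and RGLS4326 vs UNT (21 and 15) stayed within 1.5 times under every alternative run. In the 7 fits that used mice of all 3 series and no covariate for reads in no gene (6 for RGLS4326 vs UNT), 32 of 35, 13 of 18 and 35 of 36 calls held throughout. With the replicate number as a block, 23 higher and 11 lower, 1 higher and 18 lower, and 22 higher and 15 lower were called in the 3 comparisons. The numbers mark different mice, only 5 of 11 same-numbered PBS and RGLS4326 libraries deviated together with a correlation over 0.1 (range -0.21 to 0.41), and 1 of 11 was most like its own number, so the block is no pairing. Without PBS replicate 9, PBS vs UNT gave 21 higher and 13 lower, and RGLS4326 vs PBS 1 higher and 13 lower.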
